A study of Mus musculus with 30 samples.

Results

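Slpi, S100a8, S100a9, Lcn2, Ltf and Camp encode secreted antimicrobial proteins, several of them carried by neutrophils, and their transcripts were followed in salivary glands of NOD.H-2h4 mice after blockade of CD40L. The 6 genes are all the members of the group, out of 18194 genes with a probe set on the array, and all 6 were among the 12999 genes tested. They were chosen by the measured treatment differences of S100a8 and Slpi, which lay at different weeks in these same arrays. Differences of the 6 genes, between treatments or ages, are therefore given as a description, without a test. The groups were female NOD.H-2h4 mice given anti-CD40L at 20 mg/kg with glands taken at week 8, 16 or 24, and female NOD.H-2h4 mice given a human IgG1 isotype control antibody at the same dose and ages. All mice, controls included, received their 1 intraperitoneal injection at 4 weeks of age, so no group was left uninjected. Each of the 6 groups had 5 arrays, called biological replicates by the labels. Whether each array held the gland of 1 animal is not stated, so p-values measure the spread between these arrays. NOD.H-2h4 is an inbred strain prone to autoimmune thyroiditis and to lymphocyte infiltration of the salivary glands. CD40L on activated T cells engages CD40 on B cells, dendritic cells and macrophages. The RNA came from the whole gland, which mixes acinar, duct, vascular and infiltrating cells.

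S100A8 and S100A9 pair into calprotectin, which binds zinc, manganese and calcium, starves microbes of metal and signals through TLR4 and RAGE. Lipocalin 2 (Lcn2) traps bacterial siderophores, and lactoferrin (Ltf) binds iron itself. SLPI, the secretory leukocyte protease inhibitor, blocks neutrophil elastase and is made by mucosal and glandular epithelium as well as by myeloid cells. Cathelicidin (Camp) is a neutrophil granule protein that is cleaved to a membrane-disrupting peptide. Neutrophils make most of these proteins while they mature in bone marrow, whereas epithelium can make S100a8, S100a9, Lcn2, Slpi and Ltf locally.

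Values are log2 array intensities, so a difference of 1 is a factor of 2, and each gene was read by 1 probe set. A probe set's level was compared only with itself across arrays. The median probe set of an array lay between 5.49 and 5.54. Slpi lay above the median of its array in 30 of 30 arrays, Ltf in 29, Lcn2 in 23, S100a9 in 15, S100a8 in 8 and Camp in 6. S100a8 and Camp therefore entered the test through few arrays. The filter asked for 5 arrays above the median, and 4 of the 8 for S100a8 were of anti-CD40L glands at week 16. Gland identity was checked with acinar markers such as Dcpp1 and Aqp5, whose list averaged 9.54 to 11.09 per array. The parotid enzyme Amy1 ranged from 6.58 to 13.70, so glands differed in how much parotid tissue they held. A 3' minus 5' difference of control probe sets, which rises as RNA degrades, overlapped between treatments at weeks 8 and 16. At week 24 it was 0.164 to 0.248 in anti-CD40L glands and 0.287 to 0.610 in control glands, without overlap. The median correlation with the other arrays was lowest in 5 arrays, anti-CD40L replicates 1 and 3 and control replicates 3 and 4 of week 8 and control replicate 1 of week 24.

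**Figure D1:**
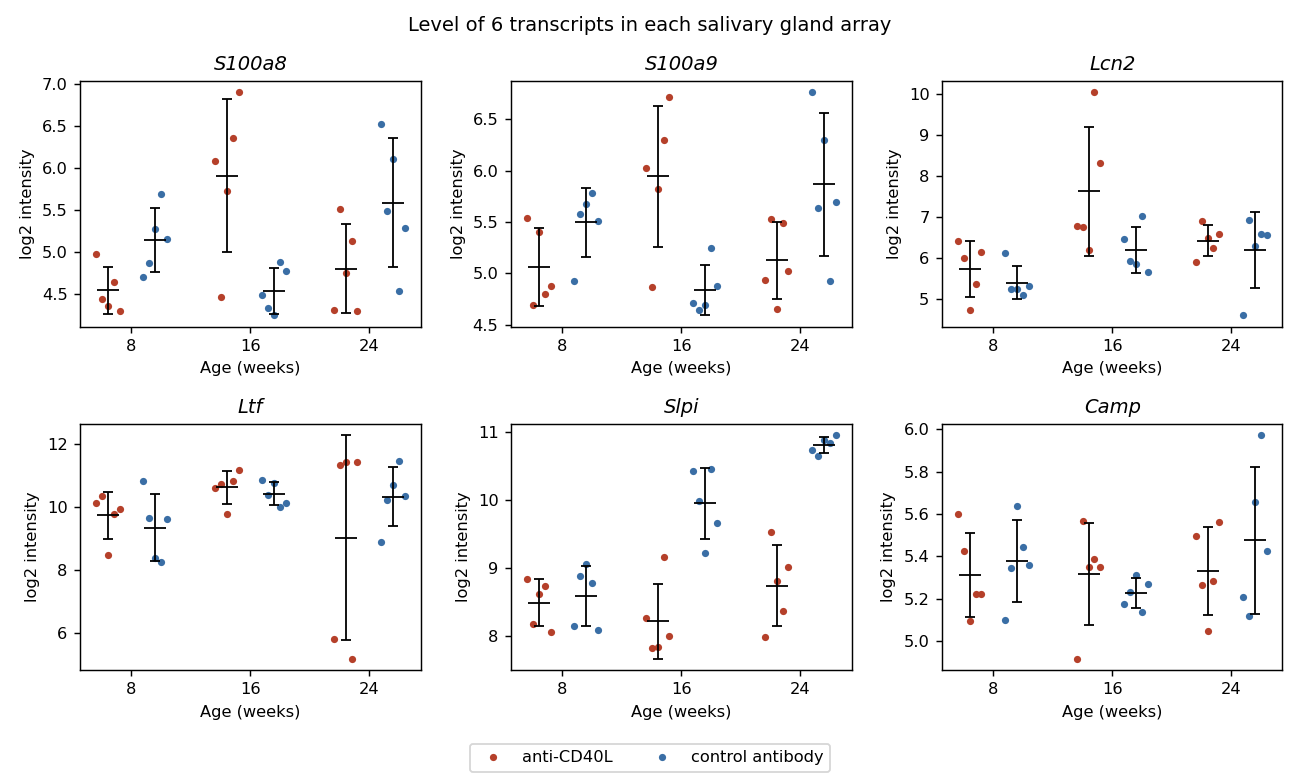
Level of each transcript (log2 intensity, vertical axis, a separate scale per panel) against age in weeks, with 1 point per array, anti-CD40L left and control antibody right at each age, and bars for the mean and SD of 5 arrays. Slpi averaged 10.81 in control glands at week 24, S100a8 and S100a9 were high in 4 of 5 anti-CD40L arrays at week 16, and 2 of 5 anti-CD40L arrays at week 24 were low in Ltf.

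Slpi separated the treatments at weeks 16 and 24, when every control array lay above every anti-CD40L array. At week 8, Slpi read 8.84, 8.18, 8.62, 8.73 and 8.06 in anti-CD40L glands, against 8.14, 8.88, 9.06, 8.78 and 8.09 in control glands. These ranges overlapped almost completely. At week 16, Slpi read 8.26, 7.83, 7.84, 9.16 and 8.00 in anti-CD40L glands, against 10.43, 9.99, 9.21, 10.46 and 9.66 in control glands. At week 24, Slpi read 7.98, 9.53, 8.80, 8.37 and 9.01 in anti-CD40L glands, against 10.74, 10.66, 10.88, 10.84 and 10.95 in control glands. The week 24 controls lay close together, with a SD of 0.12, while the anti-CD40L arrays of that age lay between 7.98 and 9.53. Whole-gland RNA cannot tell fewer Slpi-expressing cells from less Slpi RNA per cell. The difference, anti-CD40L minus control, was -0.10 at week 8, -1.73 at week 16 and -2.08 at week 24, each with an SE of 0.27. As linear ratios, Slpi was 3.32-fold lower in anti-CD40L glands at week 16 and 4.22-fold lower at week 24. Of all genes tested, 3.02% at week 16 and 1.76% at week 24 lay lower after anti-CD40L without overlap of the groups, and nothing is read from this because treatment differences chose the gene.

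The plasma cell genes Jchain and Mzb1 were, like Slpi, lower after anti-CD40L at weeks 16 and 24, and B and T cell marker means were lower at week 24. Jchain, which encodes the joining chain of IgA and IgM, and Mzb1, a plasma cell chaperone, are named after their values were seen. Their p-values, here and below, are therefore only a description. At week 16, Jchain was 8.35 to 9.30 in anti-CD40L glands and 11.49 to 12.59 in control glands, a difference of -3.34 ± 0.34 (limma adjusted p = 7.34e-07). Mzb1 was 6.20 to 6.77 in anti-CD40L glands and 7.86 to 9.68 in control glands of that age (limma adjusted p = 0.000358). Neither gene overlapped between treatments at week 24, and Jchain did not at week 8 either, when Slpi did. Jchain averaged 8.79 in anti-CD40L and 12.13 in control glands at week 16, and 10.77 and 12.56 at week 24. Its treatment groups thus lay closer at week 24, which those of Slpi did not. At week 24 the mean of 5 B cell markers was 5.25 to 5.65 in anti-CD40L glands and 6.25 to 7.72 in control glands. Of the 5, 4 fell (limma, adjusted p under 0.05). The mean of 6 T cell markers was 4.96 to 5.73 in anti-CD40L glands and 5.84 to 7.62 in control glands, and 4 of the 5 tested fell. Of all genes tested, 9.45% were called at that age. Cd40 itself fell by 0.59 on the log2 scale at week 24 (limma adjusted p = 0.0229). At week 16 the B cell mean was 5.18 to 5.30 in anti-CD40L glands and 5.27 to 6.51 in control glands, and 0 of the 5 tested markers were called. Control replicates 1 and 4 of week 16 had the highest B cell means of their group, 6.21 and 6.51, and also its highest Slpi, 10.43 and 10.46. Their parotid marker means were 13.01 and 13.37, against 10.73 to 11.58 in the rest of the group. Their macrophage means were 8.72 and 8.85, against 8.06 to 8.12. These contents cannot be told apart in these arrays. The other 3 controls had B cell means of 5.27 to 5.47 and Slpi of 9.21 to 9.99. Their Jchain was 11.49 to 12.23 and their Mzb1 7.86 to 8.68. Among week 24 controls, Slpi was 10.66 to 10.95 and the B cell mean 6.25 to 7.72. The mean of 10 macrophage markers overlapped at week 24, at 8.04 to 8.65 in anti-CD40L glands and 8.02 to 8.65 in control glands. At week 16 it lay lower after anti-CD40L, at 7.85 to 8.18 against 8.06 to 8.85, with overlap. The median difference of these markers was then -0.33, and 0 of the 10 were called. The part of lymphocytes, plasma cells and macrophages in the Slpi difference was not tested. With the 3' minus 5' difference as a covariate, the Slpi difference was -1.69 at week 16 and -1.82 at week 24. Calls over all genes at week 24 fell from 1229 to 23 with that covariate. The B cell, T cell and Cd40 calls at that age come from the fit without it.

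The 250 bases before the Slpi start are shown because this gene alone of the 6 kept its groups apart at both later ages. Slpi lies at chr2:164354070-164356507 of GRCm38.p6, on the minus strand, and the window is chr2:164356508-164356757, taken from RefSeq promoter sequences of that build and written 5′ to 3′ along the gene.
Slpi: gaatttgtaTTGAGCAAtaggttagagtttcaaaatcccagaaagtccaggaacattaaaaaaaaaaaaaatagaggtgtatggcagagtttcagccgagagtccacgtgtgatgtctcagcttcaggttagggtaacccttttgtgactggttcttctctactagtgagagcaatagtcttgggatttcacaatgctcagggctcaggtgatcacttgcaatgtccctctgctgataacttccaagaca
Capitals mark TTGAGCAA, 241 to 234 bases before the start, which read on the other strand matches TTGCNNAA, the core bound by C/EBP factors. These factors drive many myeloid and acute-phase genes. The motif, searched on both strands, occurred in 9.55% of 27025 windows of the same length, so a match is common. The window held no TATA box, searched as TATAAA and present in 13% of windows. It held no STAT motif, searched as TTCNNNGAA and present in 7.18%. The AP-1 motif, searched as TGANTCA and present in 6.87%, was not found.

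S100a8 and S100a9 moved together, and in the opposite direction to Slpi at week 16. At that age S100a8 read 6.09, 4.46, 5.73, 6.36 and 6.91 in anti-CD40L glands, against 4.48, 4.32, 4.24, 4.87 and 4.76 in control glands. S100a9 read 6.02, 4.86, 5.82, 6.30 and 6.71 in anti-CD40L glands, against 4.72, 4.64, 4.69, 5.24 and 4.88 in control glands. In both genes 4 of 5 anti-CD40L arrays lay above all controls, and the exception was the same array, replicate 2. The difference was 1.37 ± 0.34 for S100a8, a ratio of 2.59, and 1.11 ± 0.29 for S100a9, a ratio of 2.16. Each SE, here and elsewhere, comes from the fit to all 30 arrays and not from the compared groups alone. Without anti-CD40L replicate 5, the array with the highest levels, the S100a8 difference was 1.12 and the S100a9 difference 0.92.

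The order was turned round before and after week 16. At week 8, S100a8 read 4.98, 4.43, 4.35, 4.64 and 4.28 in anti-CD40L glands, against 4.70, 4.87, 5.28, 5.69 and 5.15 in control glands. Of the anti-CD40L arrays, 4 of 5 lay below all controls. S100a9 at week 8 read 5.54, 4.70, 5.40, 4.80 and 4.88 in anti-CD40L glands, against 4.93, 5.58, 5.68, 5.79 and 5.51 in control glands, with 3 of 5 below all controls. At week 24, S100a8 read 4.30, 5.51, 4.75, 5.13 and 4.29 in anti-CD40L glands, against 6.53, 5.49, 6.10, 4.53 and 5.28 in control glands. S100a9 at week 24 read 4.94, 5.53, 4.65, 5.49 and 5.03 in anti-CD40L glands, against 6.76, 5.64, 6.30, 4.93 and 5.69 in control glands. The groups overlapped in both genes, and control replicate 1 was the highest array for each. For S100a8 the difference was -0.60 at week 8 and -0.79 at week 24 (SE 0.34), and for S100a9 it was -0.43 and -0.74 (SE 0.29). With the 3' minus 5' difference as a covariate the week 24 values shrank to -0.49 for S100a8 and -0.42 for S100a9, and those at week 8 to -0.31 for S100a8 and -0.13 for S100a9. At week 16 the same covariate gave 1.42 for S100a8 and 1.16 for S100a9.

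**Figure D2:**
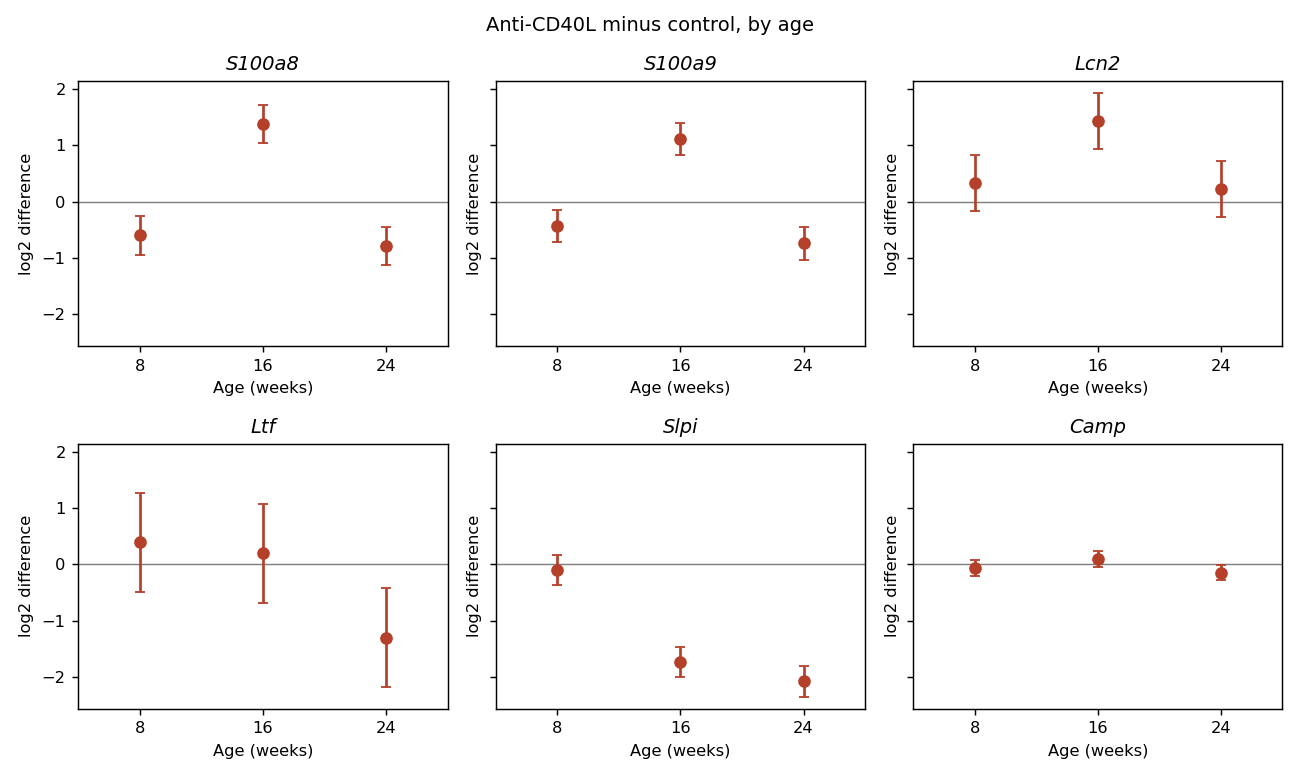
Difference between anti-CD40L and control glands (log2, vertical axis, 1 scale for all panels) at each age in weeks, with bars for the SE from the fit to 30 arrays. S100a8 and S100a9 lay above 0 at week 16 and below it at weeks 8 and 24, whereas Slpi lay far below 0 at weeks 16 and 24.

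S100a8 and S100a9 are neighbours in the S100 gene cluster, S100a8 at chr3:90669071-90670034 on the plus strand and S100a9 at chr3:90692630-90695721 on the minus strand of GRCm38.p6. Their starts lie 26.6 kb apart. Both windows of 250 bases before the start, chr3:90668821-90669070 and chr3:90695722-90695971 from RefSeq, are shown because the transcripts moved together.
S100a8: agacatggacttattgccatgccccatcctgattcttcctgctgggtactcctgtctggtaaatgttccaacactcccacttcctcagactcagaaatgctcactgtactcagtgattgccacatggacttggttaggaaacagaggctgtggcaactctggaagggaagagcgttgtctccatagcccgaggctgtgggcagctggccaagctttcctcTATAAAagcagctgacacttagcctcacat
S100a9: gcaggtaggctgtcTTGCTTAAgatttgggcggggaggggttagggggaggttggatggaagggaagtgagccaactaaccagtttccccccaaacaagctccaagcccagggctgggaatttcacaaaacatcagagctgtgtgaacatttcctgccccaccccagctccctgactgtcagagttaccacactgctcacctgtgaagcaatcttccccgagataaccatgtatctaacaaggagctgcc
Capitals mark a TATAAA box 30 to 25 bases before the S100a8 start and a TTGCTTAA, which matches TTGCNNAA, 236 to 229 bases before the S100a9 start. Neither of these motifs was found in both windows, and the STAT and AP-1 motifs were found in neither.

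**Figure D3:**
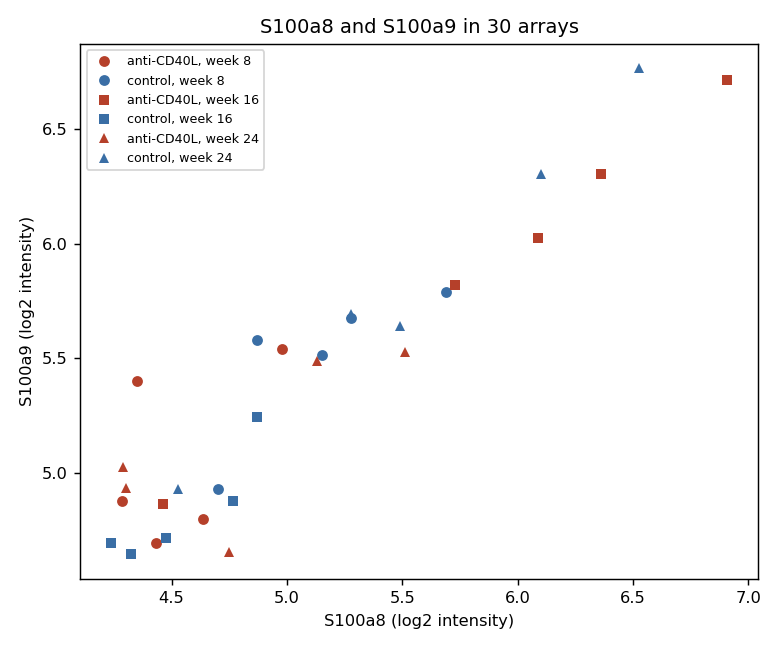
S100a9 against S100a8 (log2 intensity on both axes), 1 point per array, coloured by treatment and shaped by age. The 2 transcripts rank the arrays alike, and 4 anti-CD40L arrays of week 16 and 2 control arrays of week 24 lie at the top right.

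Within groups the pair also moved together. After subtraction of each group's mean, S100a8 and S100a9 correlated with r = 0.900 and rho = 0.783 over 30 arrays, and with r = 0.851 when the 2 arrays farthest out in S100a8 were left out. S100a9 was the gene most like S100a8 by this measure among all genes tested. The next were A430005L14Rik, Thap4, Nudt2 and Emc8, with r from 0.662 to 0.677. After S100a8, the genes most like S100a9 were Eny2, Rpl35, Rps18 and Eif3k, with r from 0.728 to 0.800. Rpl35 and Rps18 encode ribosomal proteins and Eif3k a translation initiation subunit. These correlations share arrays, and arrays differed in the 3' minus 5' difference, so they are given as a description. No other pair of members correlated as closely, the next being Lcn2 with Slpi at r = 0.440 and Lcn2 with Ltf at r = 0.384. When levels were used in place of deviations, S100a9 remained among the 5 genes most like S100a8, and the other 4 changed.

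Neutrophil markers were read beside S100a8 and S100a9. Of 12 markers fixed for neutrophils, 10 had a probe set and 6 were tested. The mean of the 10 at week 16 was 5.08 to 5.14 in anti-CD40L glands and 4.96 to 5.19 in control glands, so the groups overlapped. At week 24 it was 5.06 to 5.22 in anti-CD40L glands and 5.13 to 5.34 in control glands. Cd177 and Itgam, surface proteins of mature neutrophils, lay above the array median in 0 of 30 arrays, and the granule enzymes Mpo and Mmp8 in 3 arrays each. The mean includes these low probe sets, so it resolves change poorly. The chemokine receptor gene Cxcr2 lay above the array median in 12 arrays, Ngp in 14 and the growth factor receptor gene Csf3r in 30. Of the 6 tested markers, 0 were called between treatments at week 16 or week 24. At an unadjusted p under 0.05, 1910 of the 12999 genes differed between treatments at week 16. Squamous epithelium, which expresses S100a8 and S100a9, had a marker mean of 5.27 to 5.33 in anti-CD40L glands and 5.29 to 5.41 in control glands at week 16. The part of neutrophils or squamous epithelium in the S100a8 and S100a9 values was not tested.

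Lcn2 was highest in anti-CD40L glands of week 16, where it also varied most. It read 6.79, 6.76, 6.20, 10.04 and 8.32 in anti-CD40L glands of that age, against 6.47, 5.94, 5.87, 7.03 and 5.67 in control glands. Replicates 4 and 5 lay above all controls, and the other 3 anti-CD40L arrays lay within the control range. The difference was 1.43 ± 0.50, and 0.82 without anti-CD40L replicate 4. At week 8, Lcn2 read 6.42, 6.001, 4.73, 5.37 and 6.16 in anti-CD40L glands, against 6.12, 5.24, 5.24, 5.11 and 5.34 in control glands. At week 24, Lcn2 read 5.91, 6.91, 6.48, 6.24 and 6.59 in anti-CD40L glands, against 4.61, 6.94, 6.29, 6.58 and 6.57 in control glands. Groups overlapped at both ages, with differences of 0.33 and 0.23 (SE 0.50). Both turned negative with the 3' minus 5' covariate, at -0.27 and -0.40. The gene most like Lcn2 by deviations was Lrg1, which encodes a secreted leucine-rich glycoprotein, with r = 0.837 over 30 arrays and 0.696 without the 2 arrays farthest out. Fam3c, Bcl3 (a partner of NF-kB), Grk5 and Noxo1 followed with r from 0.702 to 0.759. Replicate 4, the array highest in Lcn2, was also the highest of its group in Slpi, at 9.16.

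Lcn2 lies at chr2:32384637-32387739 on the minus strand, and its window, chr2:32387740-32387989 of RefSeq GRCm38.p6, is shown for comparison with Slpi on the same chromosome and strand.
Lcn2: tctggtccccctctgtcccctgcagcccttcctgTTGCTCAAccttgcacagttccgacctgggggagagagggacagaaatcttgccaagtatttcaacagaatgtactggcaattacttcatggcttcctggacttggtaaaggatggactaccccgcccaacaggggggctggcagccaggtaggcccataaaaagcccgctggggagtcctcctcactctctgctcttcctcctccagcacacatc
Capitals mark TTGCTCAA, 216 to 209 bases before the start, another match to TTGCNNAA. Ltf also held a match to this motif and Camp and S100a8 none, so 4 of the 6 members held one, against 9.55% of 27025 windows. Whether the motif acts in these genes was not tested.

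Ltf was high in nearly all arrays and fell into 2 levels in a single group. At week 24 it read 5.80, 11.33, 11.43, 5.18 and 11.45 in anti-CD40L glands, against 8.89, 10.24, 10.69, 11.48 and 10.37 in control glands. Replicates 1 and 4 of the anti-CD40L group lay over 3 log2 units below every other array of that age, and the other 3 lay near the highest control. The difference of -1.30 ± 0.88 therefore described neither set, and it was 1.07 without those 2 arrays. At week 8, Ltf was lowest at 8.47, with a median of 9.94 and a maximum of 10.37, in anti-CD40L glands, and 8.25, 9.61 and 10.85 in control glands. At week 16 these were 9.80, 10.74 and 11.19 in anti-CD40L glands, and 10.02, 10.38 and 10.85 in control glands. The groups overlapped at both ages, with differences of 0.39 and 0.19 (SE 0.88). This SE, from the fit to all arrays, includes the spread of the 2 low arrays of week 24.

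The same 2 arrays stood apart in other gland products. Dcpp1, a demilune cell product of mouse sublingual and submandibular gland, read 9.79 and 8.77 there, and 13.26 to 13.73 in the other 28 arrays. The mean of the acinar markers was 9.65 and 9.54 in these arrays and at least 10.43 in all others. Over the 12999 genes tested, 37 lay more than 2 log2 units lower in both arrays than in every other array of the group. Pglyrp1, a peptidoglycan-binding antimicrobial protein of neutrophil granules and glands, was the gene most like Ltf, at 8.88 and 8.80 in the 2 arrays and 10.90 to 12.84 in the others. With the 2 arrays left out but their group mean not recomputed, its deviations correlated with those of Ltf at r = 0.984. The other 3 arrays of that group kept deviations of 2.295 to 2.407 in Ltf and 1.33 to 1.39 in Pglyrp1. This r therefore still reflects the 2 arrays. Sel1l3, B3gnt6, Galnt12 and Serpinb11 followed with r from 0.939 to 0.971 in the same calculation. B3gnt6 and Galnt12 encode enzymes of mucin-type O-glycosylation. Slpi was lowest of its group in the same 2 arrays, at 7.98 and 8.37, and its week 24 difference without them was -1.70. S100a8 was 4.30 and 5.13 in them, within the range of the other 3. Which part of the gland each array held is not given in the labels, and its part in the Ltf values was not tested.

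**Figure D4:**
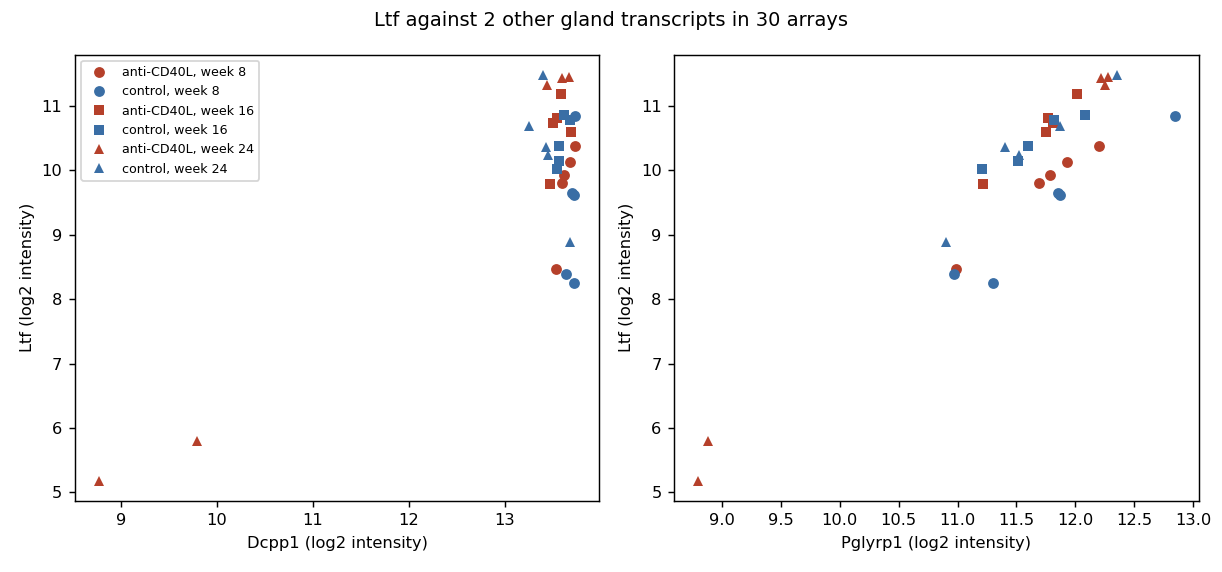
Ltf against Dcpp1 (left) and against Pglyrp1 (right), log2 intensity on all axes, 1 point per array. Replicates 1 and 4 of the week 24 anti-CD40L group lie apart at the lower left of both panels, and Ltf and Pglyrp1 rise together over the other arrays.

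Camp stayed near the array median. Over 30 arrays it ranged from 4.92 to 5.97, and group means lay between 5.23 and 5.48. Anti-CD40L and control groups overlapped at every age, with differences of -0.07, 0.09 and -0.14 at weeks 8, 16 and 24 (SE 0.14). Its highest array was control replicate 4 of week 24. The gene most like it was Aqp2, at r = 0.658 over 30 arrays.

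Change with age was compared within each treatment. It uses the arrays whose treatment differences chose the members, so the members' age differences carry no test. In control glands Slpi averaged 9.95 ± 0.53 at week 16 against 8.59 ± 0.44 at week 8 (SD, n = 5), a difference of 1.36 ± 0.27 (SE). At week 24 it averaged 10.81 ± 0.12, a difference of 2.23 ± 0.27 from week 8. All 5 arrays of either later age lay above all 5 of week 8. Of all genes tested, 16.4% at week 16 and 2.22% at week 24 did so, and nothing is read from this. Over 14 alternatives the Slpi difference was 1.18 to 1.71 at week 16 and 2.10 to 2.46 at week 24. Of 5 B cell markers, 3 rose in controls by week 24, Ms4a1 by 2.85 ± 0.59 (limma adjusted p = 0.00337), whereas at week 16 0 rose and Blk fell by 0.51 (limma adjusted p = 0.0308). Jchain rose by 2.32 ± 0.34 at week 16 and 2.76 ± 0.34 at week 24 in controls (limma adjusted p = 3.56e-05 and 7.62e-06). After anti-CD40L, Jchain rose by 1.54 ± 0.34 at week 16 and 3.52 ± 0.34 at week 24 (limma adjusted p = 0.00159 and 1.53e-07). Of 10 macrophage markers, 7 rose in controls by week 16, their mean being 8.06 to 8.85 then against 7.18 to 8.41 at week 8. Of all genes tested, 28.4% were called higher in that comparison. With the 3' minus 5' difference as a covariate, its calls over all genes fell from 6047 to 620. The part of B cells, plasma cells and macrophages in the Slpi values was not tested.

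After anti-CD40L, Slpi averaged 8.22 ± 0.55 at week 16 and 8.74 ± 0.59 at week 24, against 8.49 ± 0.35 at week 8 (SD, n = 5), and the ranges of all 3 ages overlapped. The differences from week 8 were -0.27 at week 16 and 0.25 at week 24, each with an SE of 0.27. Ordered by group mean, Slpi ran from anti-CD40L week 16 through anti-CD40L week 8, control week 8 and anti-CD40L week 24, which did not differ beyond their SDs, to control week 16 and control week 24.

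S100a8, S100a9 and Lcn2 stood higher at week 16 than at week 8 after anti-CD40L. S100a8 averaged 5.91 ± 0.92 at week 16 against 4.54 ± 0.28 at week 8, a difference of 1.37 ± 0.34 (SE). S100a9 averaged 5.94 ± 0.69 against 5.06 ± 0.38, a difference of 0.88 ± 0.29. Lcn2 averaged 7.62 ± 1.56 against 5.74 ± 0.68, a difference of 1.89 ± 0.50. For each of the 3 genes, 4 of 5 arrays of week 16 lay above all arrays of week 8. The S100a9 difference was 0.79 without anti-CD40L replicate 4 of week 16 and 0.69 without replicate 5. The parotid content moved between the same groups, the mean of 4 parotid markers being 10.62 to 12.99 at week 16 and 13.32 to 13.43 at week 8 after anti-CD40L, without overlap, though 0 of the 4 were called. Bpifb1, a secreted defence protein, fell by 5.14 on the log2 scale there (limma adjusted p = 0.0222). The part of tissue content in the S100a8, S100a9 and Lcn2 values was not tested. In controls, S100a8 differed by -0.60 ± 0.34 and S100a9 by -0.66 ± 0.29 between weeks 16 and 8.

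Many genes of the array differed between ages. Of all genes tested, 46.5% were called between weeks 16 and 8 in controls and 12.5% between weeks 24 and 8. After anti-CD40L, 36.5% were called between weeks 16 and 8 and 23.6% between weeks 24 and 8. With the 3' minus 5' difference as a covariate, calls fell from 6047 to 620 genes between weeks 16 and 8 in controls. Between weeks 24 and 8 after anti-CD40L they fell from 3074 to 633. Age and RNA quality cannot be told apart in these arrays. The median difference of the 6 members between weeks 16 and 8 after anti-CD40L was 0.89, against 0.09 over all genes tested. The members ran from -0.27 for Slpi to 1.89 for Lcn2. Nothing is read from this median, because S100a8 in those week 16 arrays helped choose the members. Against week 8, the members' median was 0.32 at week 16 and 0.62 at week 24 in controls, and 0.16 at week 24 after anti-CD40L.

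Genes that work with the members were read from 7 lists, in which 96 genes that are not members were tested. Between treatments 0 were called at week 8, 2 at week 16 and 7 at week 24, that is 0%, 2.08% and 7.29% of them. Over all genes tested, 0.0692% were called at week 8, 1.88% at week 16 and 9.45% at week 24, so the related genes lay near this background. For the change of the treatment effect between weeks 16 and 24, 0 of the 96 and 1.16% of all genes were called. With the 3' minus 5' difference as a covariate, 3 were called at week 16 and 0 at week 24, the age at which that difference did not overlap between treatments. Among 13 receptors and adaptors of S100A8 and S100A9 signalling, Ly96, the MD-2 partner of TLR4, was 0.70 ± 0.18 higher in anti-CD40L glands at week 16 (limma adjusted p = 0.0375), a call that held in 2 of the 10 fits that left out 1 array each. At week 24 the adaptors Tirap and Traf6 were higher by 0.83 ± 0.17 and 0.33 ± 0.10 (limma adjusted p = 0.00659 and 0.0415), though Traf6 stood at -0.0692 when the median of its probe sets was used. Tlr4 and Ager, the receptors themselves, passed in none of the treatment comparisons. Among 11 neutrophil granule genes, 2 fell at week 24, Cyba by 0.91 and Ncf1 by 0.67 on the log2 scale (limma adjusted p = 0.0115 and 0.0411). Both encode subunits of the phagocyte NADPH oxidase, which B cells and macrophages also express. Among 8 genes listed with other S100 proteins, which include the S100-binding protein gene S100pbp, S100a10 fell by 0.61 and S100a13 by 0.45 at week 24. Neither of these 2 is a metal-starving antimicrobial protein. Among 11 iron-handling genes, Slc40a1, the iron exporter ferroportin, fell by 0.44 at week 16 (limma adjusted p = 0.0383), which also held in 2 of 10 such fits. Il17re, a receptor subunit for IL-17C, was 0.52 ± 0.15 higher at week 24. None of the 19 protease inhibitors and target proteases, nor of 20 other secreted defence proteins, was called between treatments.

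With age, 33 of the 96 genes were called between weeks 16 and 8 in controls, 21 higher and 12 lower, and 31 after anti-CD40L, 17 higher and 14 lower. Of all genes tested, 28.4% rose and 18.1% fell in controls, and 24.1% rose and 12.5% fell after anti-CD40L. Quantile normalization lowered the median gene by 0.12 in controls and 0.13 after anti-CD40L and turned these splits round, to 14 related genes higher and 16 lower in controls and 10 higher and 20 lower after anti-CD40L. Over all genes the splits were then 2622 higher and 3616 lower in controls, and 1715 higher and 2683 lower after anti-CD40L. At week 24 the counts were 9 in controls and 20 after anti-CD40L. Of the 13 receptors and adaptors, 6 rose and 1 fell between weeks 16 and 8 after anti-CD40L, and 7 rose and 1 fell in controls. Tirap rose by 0.68 ± 0.17 after anti-CD40L and by 1.10 ± 0.17 in controls, and Ager, which encodes RAGE, fell by 0.57 and 0.43 in the same order. Nfkbiz, an IkB-family cofactor needed to induce Lcn2, rose by week 16 by 1.28 ± 0.31 after anti-CD40L (0.48 with the median of its probe sets) and by 0.79 ± 0.31 in controls. The alarmin gene Il33 rose by 1.13 ± 0.23 after anti-CD40L and by 1.02 ± 0.23 in controls. Cxcl1, a neutrophil chemokine, fell by 0.41 after anti-CD40L and by 0.45 in controls, and the cytokine gene Il1b fell by 0.73 after anti-CD40L. Of the 11 iron-handling genes, 5 rose and 1, Slc40a1, fell by 0.38 after anti-CD40L at week 16. Those that rose included the transferrin receptor Tfrc by 0.88 ± 0.24 and the ferrireductase Steap4 by 0.69 ± 0.21. Of 19 protease inhibitors and target proteases, 2 rose and 3 fell after anti-CD40L at week 16. Timp1, an inhibitor of metalloproteinases, rose by 1.08 ± 0.25, whereas Wfdc1 fell by 0.57, the cystatin Cst3 by 0.50 and neutrophil elastase, Elane, by 0.41. Wfdc2, a whey acidic protein of the same family as SLPI, rose by week 24 by 0.54 ± 0.12 after anti-CD40L and 0.43 ± 0.12 in controls. Of 11 granule genes, 1 rose and 2 fell by week 16 in controls. The oxidase subunit Cybb rose in controls by 1.14 ± 0.25 at week 16 and 1.58 ± 0.25 at week 24, and by 1.07 ± 0.25 at week 24 after anti-CD40L. Itgb2l fell by 0.54 and Fcnb, a ficolin, by 0.32 in controls at week 16. RNA quality moved with age, the 3' minus 5' difference averaging 0.29 in week 16 controls and 0.57 in week 8 controls. As a covariate it left 3 calls between weeks 16 and 8 in controls over members and lists, in place of 49.

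**Figure D5:**
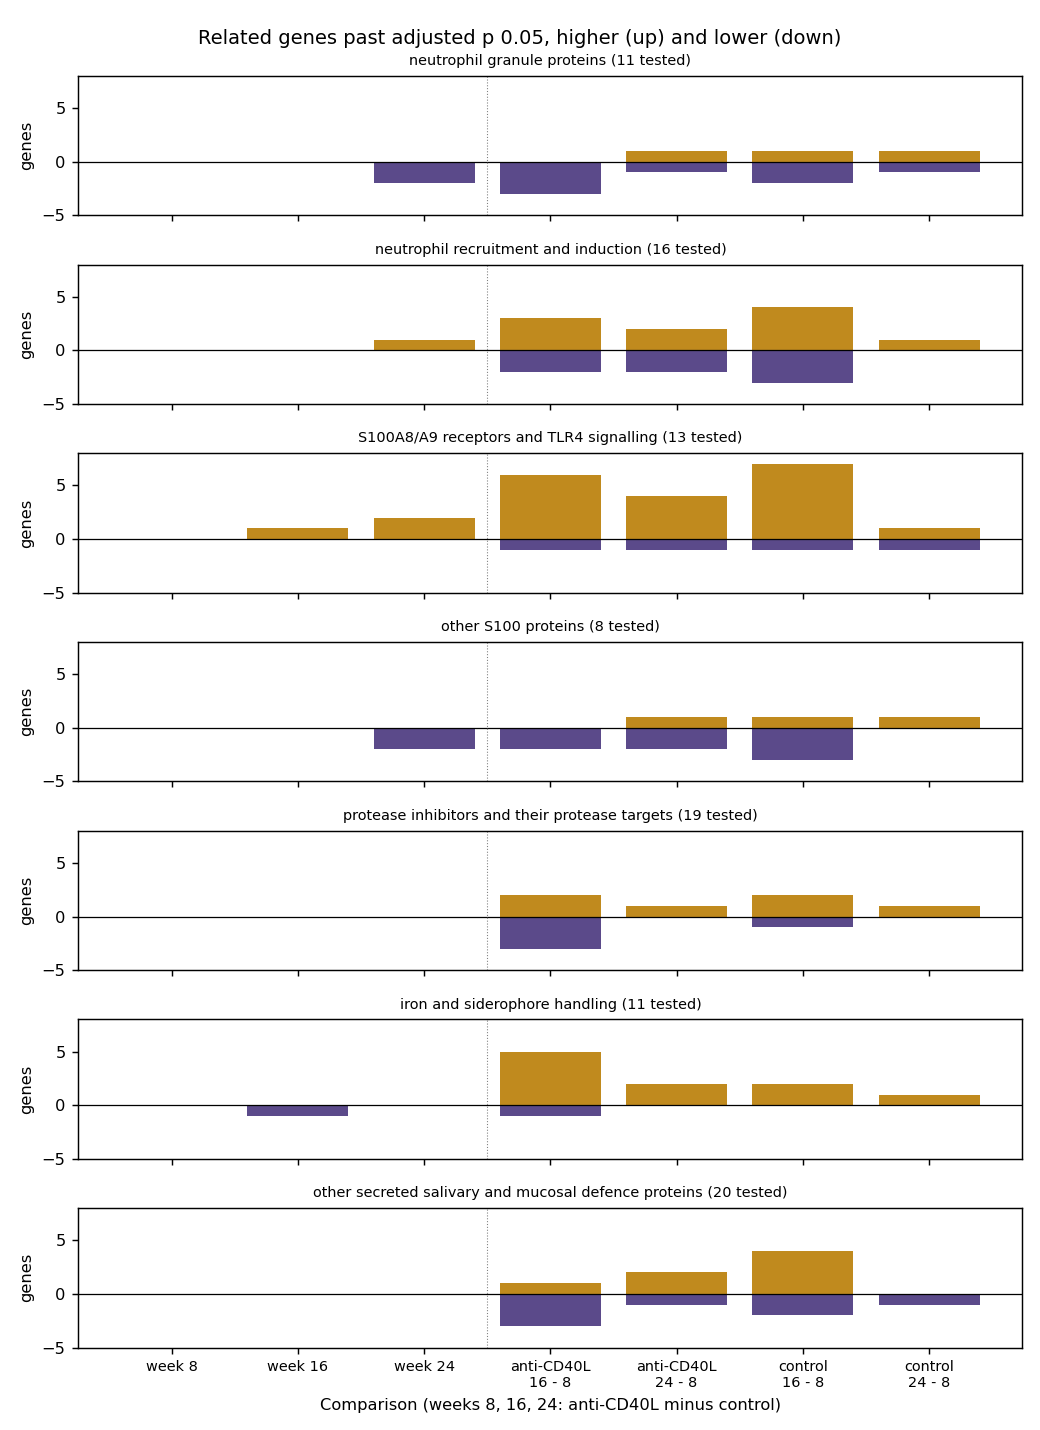
Number of related genes called in each of 7 lists (vertical axis, higher above 0 and lower below 0) for the 3 treatment comparisons, left of the dotted line, and for 4 age comparisons within a treatment. Treatment calls numbered at most 2 in a list and direction, while up to 7 were called with age.

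By deviations from group means, the genes most like Slpi were Cyp2e1, Serpina3n, Kcnj10, Plac8 and Rgs2, with r from 0.704 to 0.738 over 30 arrays. Serpina3n encodes another secreted protease inhibitor and Plac8 a protein of myeloid and epithelial cells. When levels were used, which include the group differences, none of these 5 stayed, and the genes most like Slpi included Mzb1 and Tnfrsf17, both expressed by plasma cells.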

How the data were processed

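Total RNA of whole salivary gland was labelled as biotinylated cRNA and hybridised to Affymetrix Mouse Genome 430 2.0 arrays, per the labels' protocols. The deposited table holds log2 intensities for 45101 probe sets, read as log2 from their range of 2.757 to 14.457. The submitters' processing notes name limma. The probe summary, background correction and normalization are not given in the sources used here, and nothing further was applied.

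Probe sets naming 1 gene (34958) were kept, and each gene was read from its probe set of highest mean. A gene was tested if above the array median in at least 5 arrays, which 12999 of 18194 genes were. The 6 group means were estimated together by limma 3.58.1 (R 4.3.3) from 30 arrays, and Benjamini-Hochberg adjustment covered the 12999 genes, with a threshold of 0.05. The fit was tested on simulated data. Precision is limited by 5 arrays per group.

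The 6 members, the 18 lists of 236 related and marker genes, and the alternatives were chosen with earlier results of these data known. Named are the members, up to 4 called genes per list and comparison by size of change, Cd40 and Amy1, markers beside a result, Jchain and Mzb1, chosen after their values were seen, and the 5 genes closest to each member by correlation of deviations from group means. Further genes of a list were named to describe it. Correlations without the 2 farthest arrays kept group means that included those arrays. Promoter windows are the 250 bases before the start in RefSeq GRCm38.p6. Alternatives were quantile normalization, centring, no filter or a 70th percentile filter, the median probe set, array weights, an intensity trend, only the arrays compared, a replicate block, Amy1 as a covariate and each array left out. Added after the data were seen were fits without the 2 arrays low in Ltf, or without 5 arrays whose median correlation with the others was under 0.975, and covariates for the 3' minus 5' difference and Dcpp1. The replicate numbers did not pair arrays.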

Additional observations from a re-analysis of the deposited data

Results flagged for a closer look

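In Lcn2, 2 control arrays stood far from the other 4 of their group. Control replicate 1 of week 8 was at 6.115, the nearest other array of the group being at 5.335. Control replicate 1 of week 24 was at 4.608, with the nearest at 6.294. These were 2 of 36 groups tested, and chance alone marks about 1 in 20. The treatment difference of Lcn2 at week 24 was 0.23 with control replicate 1 of that age and -0.17 without it. This array had a 3' minus 5' difference of 0.610, against 0.287 to 0.389 in the rest of its group. The part of RNA quality in its Lcn2 value was not tested.

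The treatment difference changed between weeks 16 and 24 in S100a8 by -2.16 and in S100a9 by -1.85, a direction that the choice of members already fixed, so no test is given. Among marker genes, the treatment difference was higher at week 24 than at week 16 for Trp63, a basal epithelial factor, by 0.674 ± 0.156 (limma adjusted p = 0.031, a call kept in 12 of 20 fits that left out 1 array), and for Bhlha15, an acinar factor, by 1.05 ± 0.262 (limma adjusted p = 0.044). The Bhlha15 call was kept in 6 of those 20 fits and under 8 of 14 alternatives, its difference falling to 0.66.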

How the results depend on the processing

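Over members and related genes, the calls between treatments numbered 0, 5 and 19 at weeks 8, 16 and 24. Of these, 0, 3 and 1 were members, which carry no test because treatment differences chose them. The counts cover the 6 members and 143 list genes, and over all genes tested 0.0692%, 1.88% and 9.45% were called. Leaving out each array in turn gave counts over members and related genes of 0 to 0, 1 to 4 and 10 to 29. Between weeks 16 and 8 there were 40 calls after anti-CD40L (27 to 48 with an array left out) and 49 in controls (31 to 53). Between weeks 24 and 8 there were 27 after anti-CD40L (11 to 33) and 25 in controls (11 to 35). The change of the treatment effect gave 0 between weeks 8 and 16 (0 to 2), 0 between weeks 8 and 24 (0 to 3) and 4 between weeks 16 and 24 (0 to 6). Of those 4, 2 were members. At week 16 the treatment count was 2 with the 70th percentile filter, which drops S100a8, S100a9, Lcn2 and Camp, 20 with array weights, 15 with only the arrays compared, 3 with the replicate block and 8 without the 5 arrays of low correlation. At week 24 it was 6 with only the arrays compared, 6 without the 2 arrays low in Ltf, 4 with the 3' minus 5' covariate and 9 with the Dcpp1 covariate. Between weeks 16 and 8 in controls it was 3 with the 3' minus 5' covariate. Between weeks 24 and 8 in controls it was 3 with only the arrays compared and 16 with the 3' minus 5' covariate. Between weeks 16 and 8 after anti-CD40L it was 24 with the stricter filter, 61 with only the arrays compared and 23 without the 5 arrays. Between weeks 24 and 8 after anti-CD40L it was 17 with the median probe set, 13 with the Amy1 covariate, 17 without the 2 arrays, 6 without the 5 arrays and 4 with the 3' minus 5' covariate. The change of the effect between weeks 8 and 16 gave 5 with array weights, 2 with the Amy1 covariate, 1 without the 2 arrays and 2 with the Dcpp1 covariate, and that between weeks 8 and 24 gave 1 with the Amy1 covariate. The change between weeks 16 and 24 gave 1 with the stricter filter, 11 with array weights, 2 without the 2 arrays and 1 with the 3' minus 5' covariate. Single arrays moved these counts by more than 1.5 times. At week 16 the treatment count was 2 without control replicate 1, and 1 without any of control replicates 2, 3 and 4 or anti-CD40L replicates 1, 4 and 5. At week 24 it was 10 without control replicate 1 and 29 without control replicate 4. The counts between weeks 16 and 8 and between weeks 24 and 8 in controls were 31 and 13 without control replicate 4 of week 8, and the second was 11 without control replicate 2 of week 24. Between weeks 24 and 8 after anti-CD40L the count was 11 without anti-CD40L replicate 1 of week 8 and 12 without replicate 3. Beyond the fewer genes or arrays of some settings, the cause was not tested.

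Over all 12999 genes, the calls between treatments ranged over the settings from 0 to 43 around 9 at week 8, from 195 to 1557 around 245 at week 16 and from 23 to 1888 around 1229 at week 24. With age they ranged from 620 to 6403 around 6047 and from 41 to 1836 around 1624 in controls at weeks 16 and 24, and from 2478 to 5432 around 4751 and from 633 to 3502 around 3074 after anti-CD40L. The change of the effect gave 0 to 263 around 19, 0 to 3 around 1 and 45 to 764 around 151. With the median over probe sets, Traf6 turned to -0.0692 between treatments at week 24, -0.25 between weeks 16 and 8 in controls, and -0.16 at week 16 and -0.10 at week 24 against week 8 after anti-CD40L, Ccl28 to -0.58 between weeks 16 and 8 in controls and Smgc to 0.31 between weeks 16 and 8 after anti-CD40L. With the 3' minus 5' covariate, Il17re turned to -0.0861 between weeks 16 and 8 in controls. Replicate numbers did not pair arrays: same-numbered arrays correlated at -0.323 to 0.401 in their deviations, 2 of 15 pairs passed 0.1, and 1 of 15 correlated best with its own number. With the replicate block, 205 genes were called at week 16 and 1137 at week 24. The treatment differences of Slpi and Camp at week 8 and of Ltf and Lcn2 at weeks 8 and 24 had no stable sign. For S100a8 and Camp, most arrays lay below the array median, where an array resolves change poorly.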
